A study of Mus musculus with 12 samples.

Results

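Fibroblasts from mouse back skin wounds were compared between 16 h and 1.5 d after injury, using 6 of the 12 RNA-seq libraries of the series and every gene in the count table. Both groups came from male wild type C57BL/6 mice of 8 weeks of age with full-thickness excisional wounds made by a 4 mm punch, and each group held 3 libraries, 1 from each of 3 mice. Digested tissue was sorted for live cells carrying SCA1, the Ly6a product, and lacking CD45 and CD31. Unwounded skin (NW) and 3 d wounds, with 3 libraries each, entered the same statistical fit and are quoted only as levels beside those of the 2 groups compared. The cells were selected by 1 surface protein, so fibroblasts without SCA1 were not sampled, and each library holds the RNA of a pooled population.

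Dermal fibroblasts answer injury in stages. Early wound fibroblasts secrete cytokines and chemokines that draw in leukocytes. Later they divide, move into the wound bed, deposit and crosslink collagen and, in part, become contractile myofibroblasts marked by smooth muscle actin. Ribosome production in the nucleolus usually precedes cell growth, and the mitotic genes are transcribed in a burst late in the cell cycle.

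The 16 h libraries held 30601136, 31450940 and 26431358 assigned fragments and the 1.5 d libraries 32277039, 38973316 and 43493475. Replicate 3 of 16 h stood apart. It lay at -100 on the first principal component of the 6 libraries (35.4% of the variance), where the others of its group lay at -35.3 and -21.3 and the 1.5 d libraries at 41.4, 43.1 and 72.1. It also had the highest share of the ribosomal precursor Rn45s, 2.01% of fragments. Ly6a stood at 1367, 1227 and 1948 CPM (fragments relative to library size, scaled by the trimmed mean of M-values, TMM) at 16 h and 2916, 1482 and 1662 at 1.5 d. Ptprc, encoding CD45, did not exceed 9.19 CPM and Pecam1, encoding CD31, 2.16 CPM before that scaling. Markers of keratinocytes, which the gate did not name, took 1.22% ± 0.337 of fragments at 16 h and 0.645% ± 0.175 at 1.5 d (SD, n = 3). All 20 genes of that list had fragments in each of the 6 libraries. None of the 20 was called by edgeR (2.86% of all genes were). At an unadjusted edgeR p under 0.05 there were 9, against 2596 of all 14901 genes tested, and DESeq2 called 3. In the list 18 had a negative log2 change, with a median of -1.06. In 12 every 1.5 d library lay below every 16 h library (11.1% of all genes). The part of keratinocyte RNA in the results was not tested.

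Far more genes were called as rises than as falls between 16 h and 1.5 d, while the signs over all genes were near balance. Of all genes tested 7379 had a positive and 7501 a negative log2 change. Of 14901 genes tested, 356 rose (2.39%) and 70 fell (0.47%), 426 in all (2.86%), by edgeR's quasi-likelihood F test, with p adjusted over all genes (Benjamini-Hochberg) and called under 0.05. Among these 316 rose and 42 fell at least 2-fold. The median log2 change was 1.58 over the rises, -1.11 over the falls and -0.0046 over all genes tested. All 426 had libraries of the 2 groups that did not overlap, as did 23.4% of all genes tested (12.4% higher and 11.1% lower at 1.5 d). In bulk RNA a change in the share of a cell type and a change in RNA per cell cannot be told apart. The counts of calls depended on single libraries. Without 1 library of 16 h, 164, 137 and 196 genes rose and 11, 10 and 35 fell (replicates 1, 2 and 3 left out). Without 1 of 1.5 d, 227, 252 and 202 rose and 36, 44 and 16 fell.

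**Figure D1:**
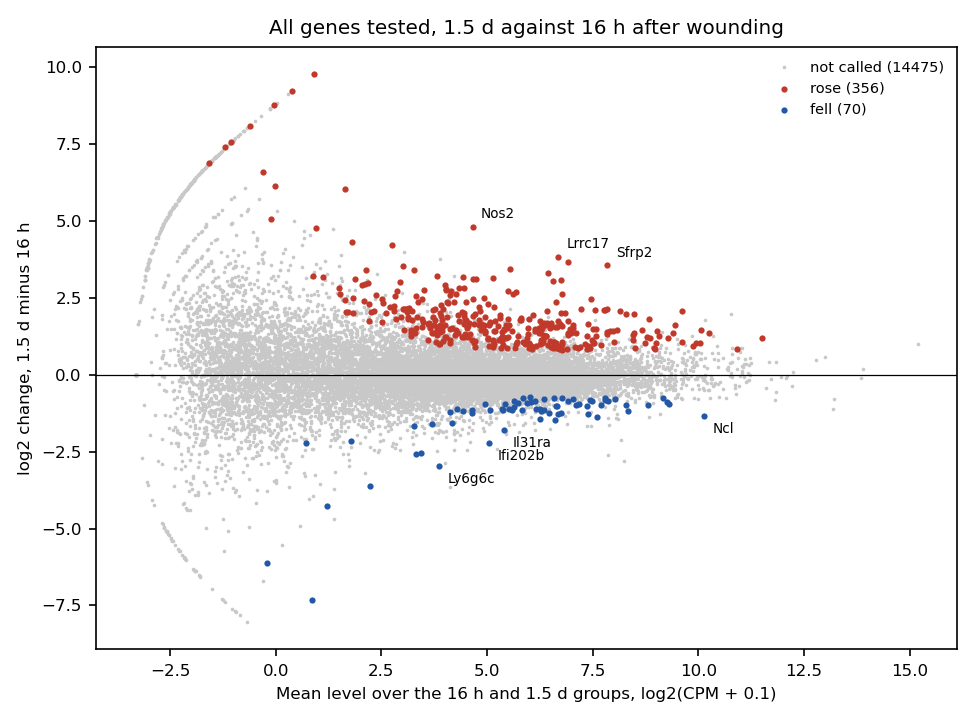
Each point is 1 of the 14901 genes tested: the x axis gives its mean level over both groups as log2(CPM + 0.1), the y axis its log2 change from 16 h to 1.5 d, with 356 rises in red and 70 falls in blue. Points on the curved edges at low level are genes with no fragments in 1 group, whose fitted change is not a bound. Labels mark 3 of the largest rises and 4 of the falls among the genes whose higher group mean reached 20 CPM.

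Genes of mitosis formed the list with the largest share of rises. Of 38 G2/M and mitosis genes, 19 rose (2.39% of all genes did) and none fell. Every member had a positive log2 change, with a median of 1.85 against -0.0046 over all genes, and in 28 of the 38 all 1.5 d libraries lay above all 16 h libraries (12.4% of all genes). Summed over the list, the libraries held 488.2, 273 and 232 CPM at 16 h and 939.1, 1297 and 1050.1 CPM at 1.5 d. In NW the sum was 702.1 ± 303 CPM and at 3 d 1293 ± 295 CPM (SD, n = 3).

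Promoters of the 4 members with the smallest p are shown as the 150 bases before the annotated start, taken from RefSeq for GRCm38.p6. Capitals mark 2 short elements of cell cycle promoters, the CCAAT box (CCAAT or ATTGG on the strand shown) and the CHR element (TTTGAA or TTCAAA). The sequences run 5′ to 3′ on the gene's strand.
Ccnb2, chr9:70421555-70421704, minus strand: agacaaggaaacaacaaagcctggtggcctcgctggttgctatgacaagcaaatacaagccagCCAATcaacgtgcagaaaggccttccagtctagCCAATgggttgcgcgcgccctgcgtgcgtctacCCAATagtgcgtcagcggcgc
Birc5, chr11:117849087-117849236, plus strand: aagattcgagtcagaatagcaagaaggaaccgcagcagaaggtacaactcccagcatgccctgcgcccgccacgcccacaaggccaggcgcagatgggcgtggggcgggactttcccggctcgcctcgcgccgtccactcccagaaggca
Cdca3, chr6:124830026-124830175, plus strand: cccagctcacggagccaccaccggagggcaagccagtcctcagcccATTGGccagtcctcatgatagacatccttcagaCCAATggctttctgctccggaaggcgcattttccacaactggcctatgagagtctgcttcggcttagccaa
Cenpa, chr5:30666736-30666885, plus strand: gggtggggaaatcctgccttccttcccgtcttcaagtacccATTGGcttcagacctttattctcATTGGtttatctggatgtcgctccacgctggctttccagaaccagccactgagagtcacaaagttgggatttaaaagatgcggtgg
In Ccnb2 the CCAAT boxes begin 87, 54 and 21 bases before the start. Cdca3 has complete boxes beginning 104 and 71 bases before it, and another that runs across the start is only partly shown. Those of Cenpa begin 109 and 86 bases before it. Birc5 holds neither set of letters in its window. No CHR letters lie in the 150 bases shown of any of these genes. In the wider window searched, those of Ccnb2 begin 167 bases before and 4 after the start. Those of Cdca3 begin 30 bases after it and those of Cenpa 16 after it.

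The search covered windows of 300 bases, 250 before and 50 after the start, on both strands. Neither motif contains the other, though a CCAAT box and CHR letters can share a base. Of the 38 members 31 had a window in the RefSeq table. A CCAAT box was present in 25 of these (80.6%), against 41.1% of the 27025 genes with a window. CHR letters were present in 23 (74.2%), against 20.2%. Among members with a window, 11 of the 14 that rose and 14 of the 17 that were not called held a CCAAT box, and 9 of 14 and 14 of 17 held CHR letters. A match is a description of these letters and not evidence of a bound site.

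Ccnb2, encoding cyclin B2, the partner of CDK1 at entry to mitosis (chromosome 9, 70407689 to 70421554, minus strand, mm10), had 10.04, 5.15 and 5.90 CPM in the 16 h replicates 1 to 3 and 64.3, 58.1 and 66.5 in those of 1.5 d. The lowest 1.5 d library lay well above the highest 16 h library. The gene rose 8.96-fold (log2 3.16, SE 0.411, adjusted p = 0.00212, edgeR). Unwounded skin held 16.7 ± 9.39 CPM and 3 d wounds 63.01 ± 16.8.

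The next 5 members by p act at chromosomes or in mitotic entry. Birc5, survivin of the chromosomal passenger complex, went from 6.30, 3.71 and 4.83 CPM to 46.3, 35.1 and 24.1 CPM (7.10-fold, adjusted p = 0.00267, edgeR). Aurkb, the kinase of the same complex, stood at 7.51, 5.93 and 3.56 CPM and then 22.7, 22.5 and 30.4 CPM (4.44-fold, adjusted p = 0.00951). Cenpa, the histone variant that marks centromeres, had 6.94, 3.74 and 3.19 CPM at 16 h and 39.9, 30.7 and 22.00 CPM at 1.5 d. Its change was 6.68-fold (adjusted p = 0.00445). Mad2l1, of the spindle checkpoint, had 5.80, 5.51 and 3.69 CPM and 30.4, 18.03 and 17.2 CPM (4.36-fold, adjusted p = 0.0112). Cdca3, a trigger of mitotic entry, rose 6.25-fold from 5.25 ± 1.65 to 32.8 ± 3.48 CPM (SD, n = 3). In these genes the 16 h libraries lay between 3.19 and 7.51 CPM, and none overlapped with 1.5 d. Cdca3 had an adjusted p of 0.00388.

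The other 12 members that rose were Aurka, Bub1, Ccna2, Ccnb1, Cdc20, Cdc25c, Cdk1, Foxm1, Kif20a, Plk1, Tacc3 and Ube2c, named here after their values were seen. Cdca8 of the passenger complex, and Cenpe, Cenpf, Bub1b and Ttk of the kinetochore and its checkpoint, were not called. The folds of the 12 that rose lay between 2.56 for Aurka and 5.91 for Bub1.

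Some proliferation markers were at or beyond the threshold. Mki67, encoding the Ki-67 antigen of cycling cells, had 18.98, 12.7 and 12.9 CPM and 30.9, 62.3 and 44.1 CPM, a 3.09-fold rise (adjusted p = 0.0408, edgeR). Unwounded skin held 44.6 ± 22.6 CPM. The call was lost when any single library other than replicate 1 of 1.5 d was left out, and by limma-voom, with an adjusted p of up to 0.152. Top2a, the DNA topoisomerase of dividing cells, stood at 46.9, 20.1 and 21.5 CPM and 37.6, 65.1 and 45.2 CPM, with overlapping libraries (adjusted p = 0.356). Prc1, which bundles the spindle midzone, had 31.3, 17.3 and 17.5 CPM and 32.7, 60.4 and 38.9 CPM (adjusted p = 0.172).

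Of 36 genes of G1/S and DNA replication, 1 rose (2.39% of all genes did), with a median log2 change of 0.43, and 16 had all 1.5 d libraries above those of 16 h (12.4% of all genes). The gene called was Tk1, thymidine kinase, at 8.21, 6.39 and 3.89 CPM and 28.4, 23.5 and 18.4 CPM (3.80-fold, adjusted p = 0.0185, edgeR). That call was lost without replicate 2 or 3 of 16 h or replicate 1 of 1.5 d (adjusted p up to 0.0782 over the alternatives). Mcm6, of the replicative helicase, had 153, 135 and 114 CPM and 97.3, 122 and 141 CPM. The difference between the 2 cell cycle lists was not tested. Among 16 CDK inhibitors and p53 targets 1 fell (6.25%, against 0.47% of all genes). Sesn2, a stress-induced regulator of growth signalling, fell 1.84-fold from 85.2 ± 16.4 to 46.4 ± 8.53 CPM (adjusted p = 0.0416, edgeR). Its call was lost without replicate 1 or 2 of 16 h or replicate 1 or 3 of 1.5 d, with an adjusted p of up to 0.176. Cdkn1a, the inhibitor p21, had 425, 414 and 384 CPM and 279, 209 and 191 CPM and did not pass (adjusted p = 0.0586).

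The number of mitosis genes that rose was 7 without replicate 2 of 16 h and 10 without replicate 3. It was 11 without replicate 2 of 1.5 d and 11 without replicate 3, while the median log2 change stayed between 1.59 and 2.28 over the 6 fits with a library left out. Ccnb2, Birc5, Cdca3, Cenpa, Aurkb and Mad2l1 were called in each of these fits. The keratinocyte share of fragments was 1.22% at 16 h and 0.645% at 1.5 d, and the part of keratinocyte RNA in these rises was not tested.

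**Figure D2:**
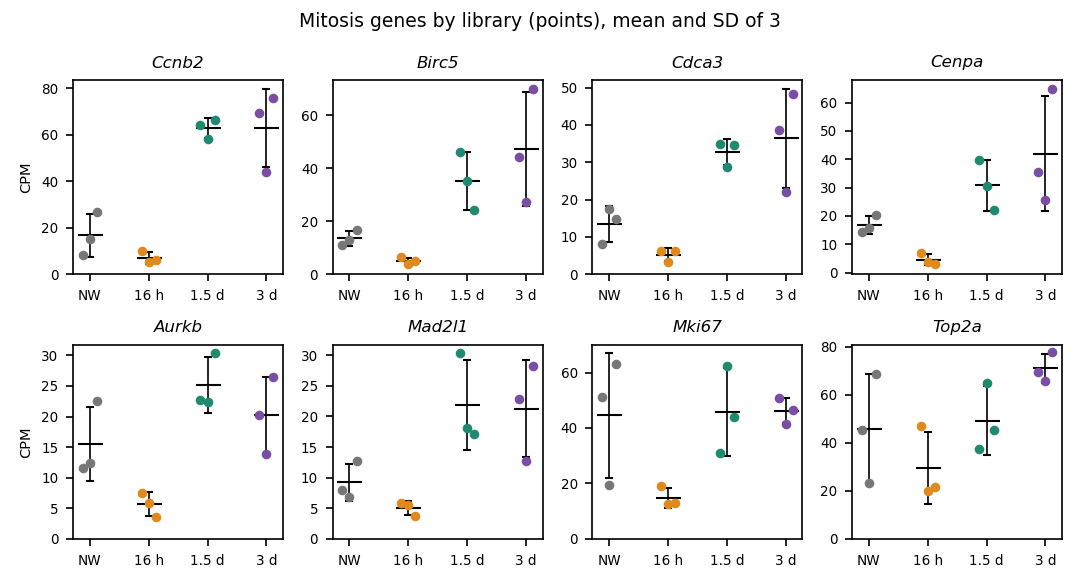
Level in TMM-scaled CPM (y axis, linear) of 8 mitosis genes in each library of NW, 16 h, 1.5 d and 3 d, with the group mean (dash) and SD (bar) of 3 libraries. In the first 7 panels every 1.5 d point is above every 16 h point, and for Top2a the groups overlap.

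Some enzymes that modify and crosslink collagen rose, while the main fibrillar collagens did not pass the test. Of 19 collagen processing genes 7 rose (2.39% of all genes did) and none fell, with a median log2 change of 1.06, and in 13 all 1.5 d libraries lay above those of 16 h (12.4% of all genes). The summed level was 6403, 5857 and 5213 CPM in the 16 h libraries and 13012, 10923 and 12547 CPM in those of 1.5 d. Among 19 collagens 2 rose (10.5%), with a median of 0.70.

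P4ha2, a prolyl 4-hydroxylase subunit that stabilises the collagen helix (chromosome 11, 54100924 to 54131667, plus strand, mm10), had 81.6, 84.9 and 86.5 CPM at 16 h and 435, 289.6 and 394 CPM at 1.5 d. The 16 h libraries were close together and all far below those of 1.5 d. The rise was 4.42-fold (log2 2.14, SE 0.249, adjusted p = 0.00133, edgeR), and levels were 259.6 ± 75.01 CPM in NW and 711 ± 116 at 3 d. P3h1, a prolyl 3-hydroxylase, went from 91.9, 127 and 119 to 322, 183 and 305 CPM (2.40-fold, adjusted p = 0.0117). P4hb encodes protein disulfide isomerase, the other subunit of prolyl 4-hydroxylase. It was the 1 gene called of 22 ER chaperone and unfolded protein response genes, a separate list (4.55% rose, against 2.39% of all genes). It had 1473, 1505 and 1186 CPM and 2663, 2393 and 2391 CPM (1.79-fold, adjusted p = 0.0451). It lost its call with any 1 of the 6 libraries left out (adjusted p up to 0.143). Serpinh1, the collagen chaperone HSP47, stood at 1801, 1847 and 1707 CPM and 4589.6, 3541 and 4091 CPM (2.28-fold, adjusted p = 0.0207). Without any single library other than replicate 2 of 1.5 d the adjusted p of Serpinh1 passed 0.05, up to 0.0876.

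Lysyl oxidases, which form the aldehydes that crosslink collagen and elastin, were in part higher at 1.5 d. Loxl3 had 185, 218 and 194 CPM at 16 h and 507, 435 and 598 CPM at 1.5 d (2.58-fold, adjusted p = 0.00838, edgeR). Both groups were far above its 38.6 ± 8.14 CPM in NW. Loxl2 went from 111, 98.02 and 76.8 to 386, 242 and 178 CPM (2.82-fold, adjusted p = 0.0135) and Loxl1 from 233, 292 and 275 to 735, 508 and 616 CPM (2.32-fold, adjusted p = 0.0140). Lox had 662, 585 and 314 CPM and 1021, 1978 and 2338 CPM, without overlap, and did not pass (adjusted p = 0.0560). Bmp1, the proteinase that removes the C-terminal propeptide of procollagen, rose 2.09-fold from 505 ± 32.4 to 1055 ± 161 CPM (adjusted p = 0.0338). Of the 7 called, P4ha2 and Loxl3 were called with each library left out in turn. P3h1 was lost without replicate 1 of 16 h, Loxl1 without replicate 1 or 2 and Loxl2 without replicate 2 or 3 of 16 h (adjusted p up to 0.0652, 0.0758 and 0.0638). Bmp1 was lost with any library left out other than replicate 2 of 1.5 d (up to 0.125). The number of rises in this list was 3 without replicate 1 or 2 of 16 h and 4 without replicate 3.

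The 2 collagens called were the chains of collagen V, which starts and limits the thickness of collagen I fibrils. Col5a1 had 769, 492 and 462 CPM at 16 h and 1832, 1465 and 1388 CPM at 1.5 d (2.72-fold, adjusted p = 0.0227, edgeR), and Col5a2 919.9, 624 and 531 CPM and 1977, 1611 and 1715 CPM (2.56-fold, adjusted p = 0.0261). In NW they stood at 1584 ± 385 and 951 ± 244 CPM. Both calls were lost without replicate 2 or 3 of 16 h or replicate 1 of 1.5 d, and that of Col5a2 also without replicate 3 of 1.5 d (adjusted p up to 0.115 and 0.121). Col1a1, the main chain of collagen I, had 28791, 10199.9 and 7141 CPM at 16 h and 11092, 20878 and 11163 CPM at 1.5 d, with overlap (log2 -0.10, SE 0.527, adjusted p = 0.952). Replicate 1 of 16 h held the highest level of the 6. Col1a2 likewise overlapped (25417, 9107 and 7962 against 16456, 19723 and 12423 CPM). Col3a1, which is abundant in young granulation tissue, had 40371, 22057 and 13080.4 CPM and 44171, 53903 and 51999 CPM. Its groups did not overlap, and its log2 change of 0.99 had an SE of 0.435 (adjusted p = 0.257).

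**Figure D3:**
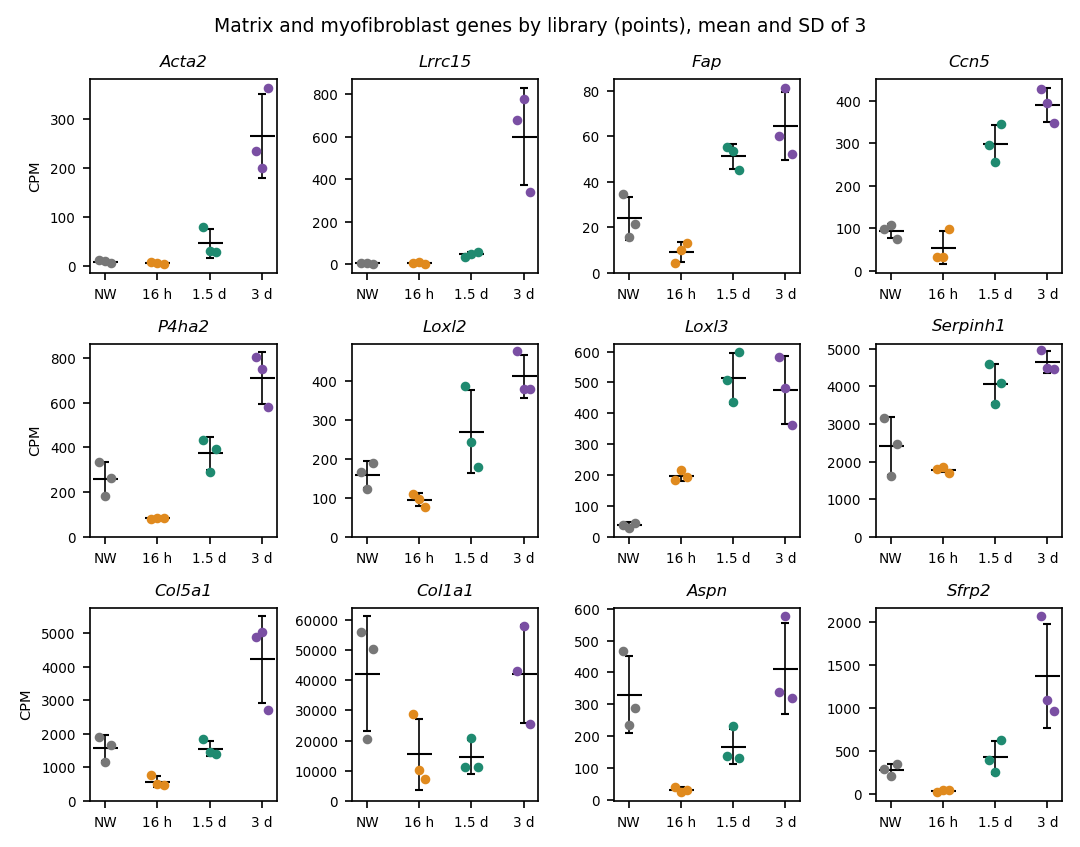
Level in TMM-scaled CPM (y axis, linear) of 12 matrix and myofibroblast genes in each library of NW, 16 h, 1.5 d and 3 d, with the group mean (dash) and SD (bar) of 3 libraries. The 1.5 d points lie above those of 16 h in every panel except Col1a1, where the groups overlap.

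Several small proteoglycans and elastic fibre proteins rose too. Of 24 genes in that list 6 rose and 1 fell (2.39% and 0.47% of all genes did), with a median log2 change of 0.74. Aspn, the collagen-binding proteoglycan asporin, had 41.6, 25.8 and 30.1 CPM at 16 h and 137, 231 and 132 CPM at 1.5 d (5.14-fold, adjusted p = 0.00431, edgeR). Ogn, or mimecan, of the same family had 55.6, 40.7 and 70.7 CPM and 276, 284 and 170.2 CPM (4.38-fold, adjusted p = 0.0112). Their levels in NW were 331 ± 121 and 483 ± 210.2 CPM, means above those at 1.5 d. Bgn, biglycan, rose 2.04-fold to 1323 ± 240.5 CPM (adjusted p = 0.0221), Efemp1, fibulin-3, 2.31-fold to 649.9 ± 187 (adjusted p = 0.0185), and Emilin1, an elastic fibre glycoprotein, 2.72-fold to 595 ± 84.4 (adjusted p = 0.0310). Fbn2, fibrillin-2, rose 2.80-fold from 22.3 ± 1.78 to 62.3 ± 12.6 CPM (adjusted p = 0.0237). Ltbp4, which binds latent TGF-beta and aids elastic fibre assembly, fell 2.59-fold from 309, 337 and 188 to 78.9, 141 and 102 CPM (adjusted p = 0.0338). Dcn, decorin, had 5887, 5336 and 6408 CPM and 11918, 7262 and 5539 CPM, with overlap. Aspn was called with each library left out in turn and Emilin1 with none. Ogn was lost without replicate 1 or 2 of 16 h, and Efemp1 also without replicate 1 or 3 of 1.5 d (adjusted p up to 0.0640 and 0.101). Bgn was called only without replicate 3 of 1.5 d and Fbn2 only without replicate 1 or 2 of 1.5 d (adjusted p up to 0.102 for Bgn and 0.104 for Emilin1). The number of rises was 1 without replicate 1 or 2 of 16 h, and 3 without replicate 3 of 16 h or replicate 1 or 3 of 1.5 d. The call of Ltbp4 was lost without replicate 1 or 2 of 16 h or replicate 1 or 3 of 1.5 d (adjusted p up to 0.135).

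Matricellular proteins modulate how cells contact the matrix, and 3 of the 23 tested rose (2.39% of all genes did). All 3 belong to the CCN family. Ccn5, a member that lacks the C-terminal domain of the others, had 31.7, 32.96 and 99.2 CPM at 16 h and 295, 257 and 346 CPM at 1.5 d (5.49-fold, adjusted p = 0.00569, edgeR). Ccn4, a Wnt-induced member, had 43.3, 52.7 and 44.2 CPM and 197, 88.1 and 113 CPM (2.84-fold, adjusted p = 0.0115). It lost its call without replicate 1 of 16 h (adjusted p up to 0.0603), and the list then held 1 rise. Ccn2, connective tissue growth factor, had 36.1, 25.7 and 52.5 CPM and 68.3, 202 and 86.8 CPM (3.12-fold, adjusted p = 0.0445), with the highest value in replicate 2. Its call held without replicate 1 of 1.5 d and was lost with any other library left out (up to 0.166). Tenascin C, encoded by Tnc, stood at 2858, 2499.6 and 868 CPM and 2452, 2397 and 2949 CPM and Postn, encoding periostin, at 777, 580.2 and 556 CPM and 1282, 1451 and 996 CPM. Neither passed (adjusted p = 0.761 and 0.0977). Nid2, nidogen-2 of basement membranes, was among the 15 largest rises, from 44.00, 14.1 and 9.90 to 159, 173 and 241 CPM (8.42-fold, adjusted p = 0.0105). Its adjusted p was 0.0580 without replicate 2 of 16 h.

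Marker genes of activated and contractile fibroblasts rose from low levels. Acta2, smooth muscle actin (chromosome 19, 34240336 to 34255373, minus strand, mm10), had 6.90, 5.48 and 3.39 CPM at 16 h and 79.98, 29.6 and 27.5 CPM at 1.5 d. Replicate 1 of 1.5 d was the highest, and the lowest of that group was still above all 16 h libraries. The rise was 8.67-fold (log2 3.12, SE 0.457, adjusted p = 0.00432, edgeR), to 45.7 ± 29.7 CPM against 265 ± 85.6 at 3 d. Lrrc15, a surface protein of TGF-beta-exposed fibroblasts (chromosome 16, 30269302 to 30283254, minus strand), had 4.54, 9.49 and 2.28 CPM and 35.1, 48.9 and 59.3 CPM (8.76-fold, adjusted p = 0.0140). At 3 d it stood at 599.7 ± 228 CPM. Its call was lost without replicate 1 or 3 of 16 h (adjusted p up to 0.0712). Fap, the fibroblast activation protease, went from 4.30, 9.88 and 12.9 to 55.2, 53.5 and 45.1 CPM (5.67-fold, adjusted p = 0.00569) and was called with each library left out.

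Of 24 contractile and actin genes 2 rose (8.33%, against 2.39% of all genes), Acta2 and the myosin light chain Myl9, with a median log2 change of 0.44. Myl9 had 1.67, 3.74 and 3.29 CPM and 20.7, 12.4 and 5.71 CPM (4.45-fold, adjusted p = 0.0240, edgeR), and was lost with any library left out other than replicate 3 of 1.5 d (up to 0.110). Pericyte and smooth muscle markers took 0.00639% ± 0.0015 of fragments at 16 h and 0.00953% ± 0.00167 at 1.5 d (SD, n = 3). Myh11, the smooth muscle myosin, had 0, 0 and 0 CPM at 16 h and 0.991, 1.36 and 0 CPM at 1.5 d before TMM scaling. Of the 12 markers tested 10 had a positive log2 change, with a median of 0.68, and 1 rose (8.33%, against 2.39% of all genes). Vtn, vitronectin, rose from 6.77, 6.57 and 5.80 to 26.7, 17.1 and 11.7 CPM (edgeR adjusted p = 0.0278). It lost its call with any library left out other than replicate 3 of 1.5 d (up to 0.113). The part of pericytes and smooth muscle cells in the rises of Acta2 and Myl9 was not tested.

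Secreted regulators and their receptors changed in a few members of each list. Sfrp2, a secreted Wnt modulator (chromosome 3, 83766321 to 83774314, plus strand, mm10), had 19.7, 43.8 and 43.2 CPM at 16 h and 389, 255 and 629 CPM at 1.5 d (11.9-fold, log2 3.58, SE 0.440, adjusted p = 0.00161, edgeR). The mean of unwounded skin lay between the 2 group means, at 281 ± 71.8 CPM. Among 27 Wnt pathway genes it and the receptor Fzd2 (9.34, 11.7 and 11.7 against 24.4, 24.8 and 30.7 CPM, adjusted p = 0.0112) rose (7.41%, against 2.39% of all genes), with a list median of 0.67 and none falling. Fzd2 was lost without replicate 1 of 16 h (adjusted p up to 0.0604). Vegfd, a growth factor for lymphatic vessels, had 28.8, 39.8 and 60.3 CPM and 147, 133 and 137 CPM (3.23-fold, adjusted p = 0.00846), and Igfbp4, which binds insulin-like growth factors, 102, 98.02 and 179 CPM and 402, 254 and 329.7 CPM (2.60-fold, adjusted p = 0.0140). Igfbp4 was lost without replicate 1 or 2 of 16 h (up to 0.0823), and its level in NW was 497 ± 89.5 CPM. These were the 2 called of 36 growth factors and receptors (5.56%). Vegfa, the main vascular growth factor, had 334, 353 and 269 CPM and 297, 159 and 236 CPM and did not pass (adjusted p = 0.327). The angiopoietin gene Angpt4 rose 9.30-fold from 2.73 ± 1.03 to 25.4 ± 8.95 CPM and the related Angptl1 9.07-fold from 4.24 ± 1.94 to 38.4 ± 10.03 CPM (edgeR adjusted p = 0.00539 and 0.00133). Their levels in NW were 21.6 ± 11.5 and 101 ± 14.7 CPM.

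Matrix proteases cut collagen and other matrix proteins. Mmp23, a membrane-bound metalloproteinase, had 38.6, 20.6 and 38.4 CPM at 16 h and 207, 100.5 and 108 CPM at 1.5 d. It rose 4.26-fold (adjusted p = 0.00490, edgeR) and was called with each library left out. The stromelysin Mmp3 stood at 4039.5, 3434 and 3069 CPM and 4079, 3109 and 2489 CPM (adjusted p = 0.864).

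In the opposite direction, some nucleolar genes of ribosome production fell. Of 25 ribosome biogenesis genes 6 fell (0.47% of all genes did) and none rose. All 25 had a negative log2 change, with a median of -0.70, and 15 had every 1.5 d library below every 16 h library (11.1% of all genes). Summed over the list the libraries held 5475, 6164 and 5726 CPM at 16 h and 3718, 2924 and 3023 CPM at 1.5 d. The sum was 1843 ± 148 CPM in NW and 2392 ± 250 at 3 d (SD, n = 3).

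Ncl, the abundant nucleolar protein nucleolin (chromosome 1, 86344719 to 86359455, minus strand, mm10), had 1439.9, 1800.1 and 1635 CPM at 16 h and 681, 714 and 528 CPM at 1.5 d. The highest 1.5 d library lay well below the lowest 16 h library. The fall was 2.53-fold (log2 -1.34, SE 0.211, adjusted p = 0.005997, edgeR), and NW stood at 368 ± 36.5 CPM. Mybbp1a, a nucleolar regulator of transcription, went from 476, 454 and 315 to 190.1, 207 and 231 CPM (1.98-fold lower, adjusted p = 0.0211), and the nucleolar RNA helicase Ddx21 from 243, 291 and 285 to 169, 105 and 145 CPM (1.96-fold lower, adjusted p = 0.0263). Nolc1, a chaperone of small nucleolar particles, was 1.80-fold lower at 127 ± 14.8 CPM (adjusted p = 0.0237).

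The assembly factors Rrp12 and Heatr1 had 186, 171 and 98.8 and 191, 154 and 90.5 CPM at 16 h, and 51.2, 59.4 and 82.7 and 51.9, 54.3 and 74.4 CPM at 1.5 d (adjusted p = 0.0284 and 0.0497, edgeR). In both genes replicate 3 of 16 h was the lowest of its group and close to the highest 1.5 d library. Npm1, nucleophosmin, overlapped between groups at 367, 456 and 638 against 499.5, 239.7 and 245 CPM (adjusted p = 0.411). None of 25 cytosolic ribosomal protein genes was called by edgeR (2.86% of all genes were), DESeq2 or limma-voom. Nor was any under an unadjusted edgeR p of 0.05, against 2596 of all 14901 genes tested. Their median log2 change was -0.23.

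Of the ribosome biogenesis falls only that of Ncl was called in each of the 6 fits with a library left out. Without replicate 1 or 2 of 16 h, or replicate 2 of 1.5 d, 1 gene fell. There were 2 falls without replicate 3 of 1.5 d, and 1 when the fit used only these 6 libraries. The median log2 change stayed between -0.83 and -0.57 over the fits with a library left out. Mybbp1a, Nolc1, Ddx21, Rrp12 and Heatr1 reached an adjusted p of 0.102, 0.120, 0.114, 0.117 and 0.188 under one of the alternatives. The Rn45s share of fragments was 1.26%, 0.559% and 2.01% in the 16 h libraries and 0.359%, 0.712% and 1.07% in those of 1.5 d. Its part in these falls was not tested.

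**Figure D4:**
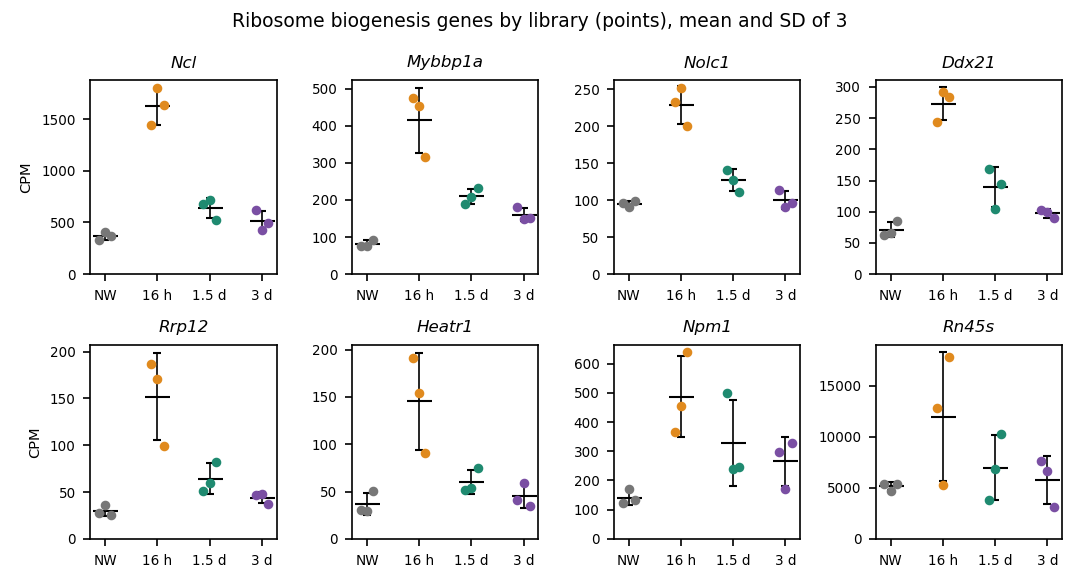
Level in TMM-scaled CPM (y axis, linear) of 7 ribosome biogenesis genes and the ribosomal precursor Rn45s in each library of NW, 16 h, 1.5 d and 3 d, with the group mean (dash) and SD (bar) of 3 libraries. The first 6 panels show every 1.5 d point below every 16 h point, and Npm1 and Rn45s overlap.

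Of the metabolic lists, glycolysis and lactate had 10% of members that rose, hypoxia response 10%, fatty acid oxidation 11.1% and the TCA cycle 5.26%, against 2.39% of all genes. Slc16a3, the lactate exporter MCT4, had 49.2, 49.9 and 36.5 CPM at 16 h and 213, 83.5 and 251 CPM at 1.5 d (4.04-fold, adjusted p = 0.00951, edgeR). Pfkm, a phosphofructokinase, had 6.27, 10.8 and 7.18 CPM and 18.7, 19.97 and 25.7 CPM (adjusted p = 0.0284), and these were the 2 called of 20 glycolysis and lactate genes (median 0.31). Pfkm was lost without replicate 1 or 3 of 16 h or replicate 2 or 3 of 1.5 d (up to 0.117). Of 20 hypoxia response genes 2 rose and 1 fell (0.47% of all genes fell). Besides P4ha2, the list holds Pdk1, a kinase that inhibits pyruvate dehydrogenase, at 25.6, 15.97 and 7.15 CPM and 44.2, 38.3 and 67.6 CPM (edgeR adjusted p = 0.0499). The histone demethylase gene Kdm3a fell 2.23-fold to 35.04 ± 7.54 CPM (adjusted p = 0.0243). Pdk1 kept its call only without replicate 1 of 16 h among these fits (up to 0.173), and Kdm3a was lost without replicate 1 or 2 of 16 h or replicate 1 or 3 of 1.5 d (up to 0.109). Hif1a stood at 1138, 1071 and 601 CPM and 506, 804 and 939 CPM (adjusted p = 0.636).

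Idh2, the mitochondrial isocitrate dehydrogenase 2, had 54.1, 51.9 and 48.8 CPM and 162, 137 and 154 CPM. These narrow groups lay far apart, and the gene rose 2.93-fold (adjusted p = 0.002003, edgeR), the only one of 19 TCA cycle genes called. The thiolases Acaa1a and Acaa2 rose 1.92-fold and 1.82-fold (adjusted p = 0.0243 and 0.0282) among 18 genes of fatty acid oxidation. Acaa1a was called only without replicate 2 of 1.5 d and Acaa2 only without replicate 3 of 1.5 d among the fits with a library left out (up to 0.110 and 0.137). Mthfd1, of one-carbon metabolism, fell 2.02-fold from 121, 148 and 129 to 58.6, 63.8 and 74.6 CPM (adjusted p = 0.0107), and was lost without replicate 2 of 16 h (up to 0.0640). Pycr1, which makes proline, an amino acid abundant in collagen, had 12.1, 11.2 and 12.4 CPM and 66.5, 86.4 and 82.6 CPM (6.58-fold, adjusted p = 0.000422).

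Inflammatory genes mostly did not pass. No gene of 5 neutrophil chemokines, 18 cytokines or 30 interferon-stimulated genes was called by edgeR, DESeq2 or limma-voom. Of all genes tested edgeR called 2.86%. In these lists 0, 0 and 1 had an unadjusted edgeR p under 0.05, against 2596 of all 14901 genes tested. Cxcl5 had 3879.8, 5182 and 4778 CPM at 16 h and 3684, 1583 and 2609.7 CPM at 1.5 d, without overlap (log2 -0.81, SE 0.594, edgeR adjusted p = 0.531). Cxcl1, another neutrophil attractant, had 2938, 3360.2 and 4406 CPM and 3689, 2078 and 2203 CPM, with overlap (adjusted p = 0.512). The cytokine Il6 had 1079, 1164 and 1315 CPM and 1764, 665 and 800.5 CPM, and the monocyte chemokine Ccl2 1841, 2010.3 and 3024 CPM and 3778, 1824 and 1514 CPM (adjusted p = 0.887 and 0.968). In each of these 4 genes replicate 1 was the highest of the 1.5 d group. A p that misses the threshold does not show that the levels were alike.

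Among 17 other chemokines 1 fell (5.88%, against 0.47% of all genes). Ccl19, which guides lymphocytes and dendritic cells, fell from 5.04, 4.10 and 3.59 to 0.2999, 0.246 and 0.111 CPM (adjusted p = 0.0496, edgeR). The call was lost with any 1 library left out (up to 0.163), and near-identical copies of the gene make its count uncertain. Tnip1, which restrains NF-kB, fell 1.97-fold to 91.9 ± 19.3 CPM, and Lifr, the receptor of leukaemia inhibitory factor, 2.17-fold to 44.6 ± 8.67 CPM (adjusted p = 0.02001 and 0.0415). Tnip1 was lost without replicate 1 or 2 of 16 h or replicate 2 or 3 of 1.5 d (up to 0.109). Lifr was lost with any library left out other than replicate 3 of 16 h (up to 0.160). Il31ra, a receptor subunit for the itch cytokine interleukin-31, fell from 47.6, 91.03 and 59.2 to 24.3, 17.8 and 15.03 CPM (3.47-fold, adjusted p = 0.00788) and was called with each library left out.

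Some defence genes rose. Hp, haptoglobin, an acute phase protein that binds haemoglobin, had 19.1, 17.1 and 11.6 CPM and 293, 99.3 and 79.4 CPM (9.86-fold, adjusted p = 0.0179, edgeR). It was lost without any 1 library of 16 h or replicate 1 of 1.5 d (up to 0.0769). Nos2, inducible nitric oxide synthase, had 3.97, 1.02 and 0.168 CPM and 79.1, 6.06 and 60.6 CPM, the largest fold among called genes whose higher group mean reached 20 CPM (28.2-fold, log2 4.82, SE 1.08, adjusted p = 0.0329). Replicate 2 of 1.5 d was close to the highest 16 h library. The call was lost without replicate 2 or 3 of 16 h or replicate 1 or 3 of 1.5 d, and by limma-voom or without the filter on low counts (adjusted p up to 0.178). Of 23 acute phase and complement genes Hp and the protease inhibitor Serpina3g rose (8.7%, against 2.39% of all genes). The latter, one of a cluster of similar genes, had 0.901, 1.27 and 0 CPM and 8.06, 7.66 and 3.50 CPM (adjusted p = 0.0401), and was called only without replicate 3 of 16 h or replicate 3 of 1.5 d (up to 0.135). Saa3 had 1079, 513 and 548 CPM and 4786, 2274 and 1365 CPM and did not pass (adjusted p = 0.172). Macrophage and monocyte markers took 0.0137% ± 0.00543 of fragments at 16 h and 0.0131% ± 0.00225 at 1.5 d, and neutrophil markers 0.00218% ± 0.000713 and 0.00113% ± 0.000159 (SD, n = 3). Their part in the rises of Hp, Nos2 and Serpina3g was not tested.

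The rise with the smallest p was that of Lrrc17, a secreted leucine-rich repeat protein (chromosome 5, 21543527 to 21575902, plus strand, mm10). It had 10.7, 16.9 and 12.4 CPM at 16 h and 166, 181 and 228 CPM at 1.5 d, groups that were each narrow and far apart (14.4-fold, log2 3.84, SE 0.244, adjusted p = 9.12e-06, edgeR). Levels were 84.9 ± 13.4 CPM in NW and 469 ± 53.8 at 3 d. Other rises of small p, singled out after their values were seen, included Mxra8, a matrix remodelling-associated surface protein, from 114, 108 and 101 to 480.3, 416 and 473 CPM (adjusted p = 0.000267), and Tmem119, a membrane protein first known from bone and microglia, from 13.7, 17.3 and 9.96 to 77.2, 85.4 and 103 CPM (adjusted p = 0.000710). Srpx2, a secreted sushi-repeat protein, went from 22.3, 38.05 and 31.03 to 209.8, 162 and 188 CPM (adjusted p = 0.000815). Pycr1 and Lrrc17 above were singled out in the same way for their p. The adjacent genes Tmem176a and Tmem176b, members of the MS4A-related membrane family, rose 10.9-fold and 8.35-fold to 85.2 ± 50.9 and 168 ± 80.2 CPM (adjusted p = 0.00133 and 0.00161), both highest in replicate 1 of 1.5 d. The protocol keeps no strand, and the annotated exons of both genes share 0 bases with another gene. Creb3l3, a membrane-bound transcription factor, rose from 7.07, 3.86 and 5.03 to 47.7, 38.7 and 27.5 CPM (edgeR adjusted p = 0.00133). Its level in NW was 77.5 ± 21.7 CPM. All genes of this paragraph were called with each library left out.

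The remaining large falls held genes of several kinds. Cpne8, a calcium-dependent membrane-binding copine, went from 102, 113 and 121 to 39.6, 38.8 and 45.3 CPM (2.71-fold lower, adjusted p = 0.00290, edgeR), and Ppid, a cyclophilin, from 106, 128 and 136 to 53.2, 44.1 and 59.6 CPM (2.35-fold lower, adjusted p = 0.00915). Both were called with each library left out. Neat1, the long noncoding RNA of paraspeckles, fell 2.41-fold from 238 ± 48.1 to 98.8 ± 18.3 CPM (adjusted p = 0.0185). Chd7, a chromatin remodeller, fell 2.95-fold to 9.06 ± 1.85 CPM (adjusted p = 0.0198). Aldh1a3, which makes retinoic acid, fell from 108, 151 and 167 to 72.5, 23.2 and 58.7 CPM (adjusted p = 0.0401), whereas Aldh1a1 of the same enzyme family rose from 32.4, 25.5 and 16.6 to 72.3, 107 and 76.1 CPM (adjusted p = 0.0211). Ly6g6c, of the Ly6 superfamily, and Ifi202b, an interferon-inducible gene with close paralogs, had the largest folds among the falls at that level, 7.78 and 4.67 (adjusted p = 0.0459 and 0.0227). Among the 6 fits with a library left out, Neat1 was called only without replicate 2 of 16 h or replicate 1 of 1.5 d, and Chd7 only without replicate 3 of 1.5 d. Aldh1a3 was called only without replicate 1 of 1.5 d, Ifi202b only without replicate 2 of 16 h and Ly6g6c in none, and Aldh1a1 was lost without replicate 2 or 3 of 16 h or replicate 2 of 1.5 d. The adjusted p of Neat1, Chd7, Aldh1a3, Aldh1a1, Ly6g6c and Ifi202b was up to 0.0714, 0.0716, 0.128, 0.0871, 0.168 and 0.0999.

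Of 19 general fibroblast markers Fap, Loxl1 and Cd34 rose (15.8%, against 2.39% of all genes) and none fell, with a median log2 change of 0.49. Cd34, a surface glycoprotein of resting dermal fibroblasts, had 344, 333 and 342 CPM and 779, 647 and 646 CPM (2.03-fold, adjusted p = 0.0362, edgeR). Its mean in unwounded skin was above those of both groups, at 1310 ± 262 CPM. It lost its call with any 1 library left out (up to 0.135). The receptor Pdgfra stood at 803, 889 and 550.5 CPM and 443, 974 and 955 CPM (adjusted p = 0.936). The 19 markers together took 6.95% ± 3.09 of fragments at 16 h and 9.85% ± 1.46 at 1.5 d (SD, n = 3). Lpl, lipoprotein lipase, was the 1 gene called of 18 preadipocyte genes (5.56% rose, against 2.39% of all genes). It had 120.1, 96.8 and 83.5 CPM and 327, 359.9 and 161 CPM (edgeR adjusted p = 0.0331, up to 0.128 over the alternatives). Among the fits with a library left out it was called only without replicate 3 of 1.5 d.

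**Figure D5:**
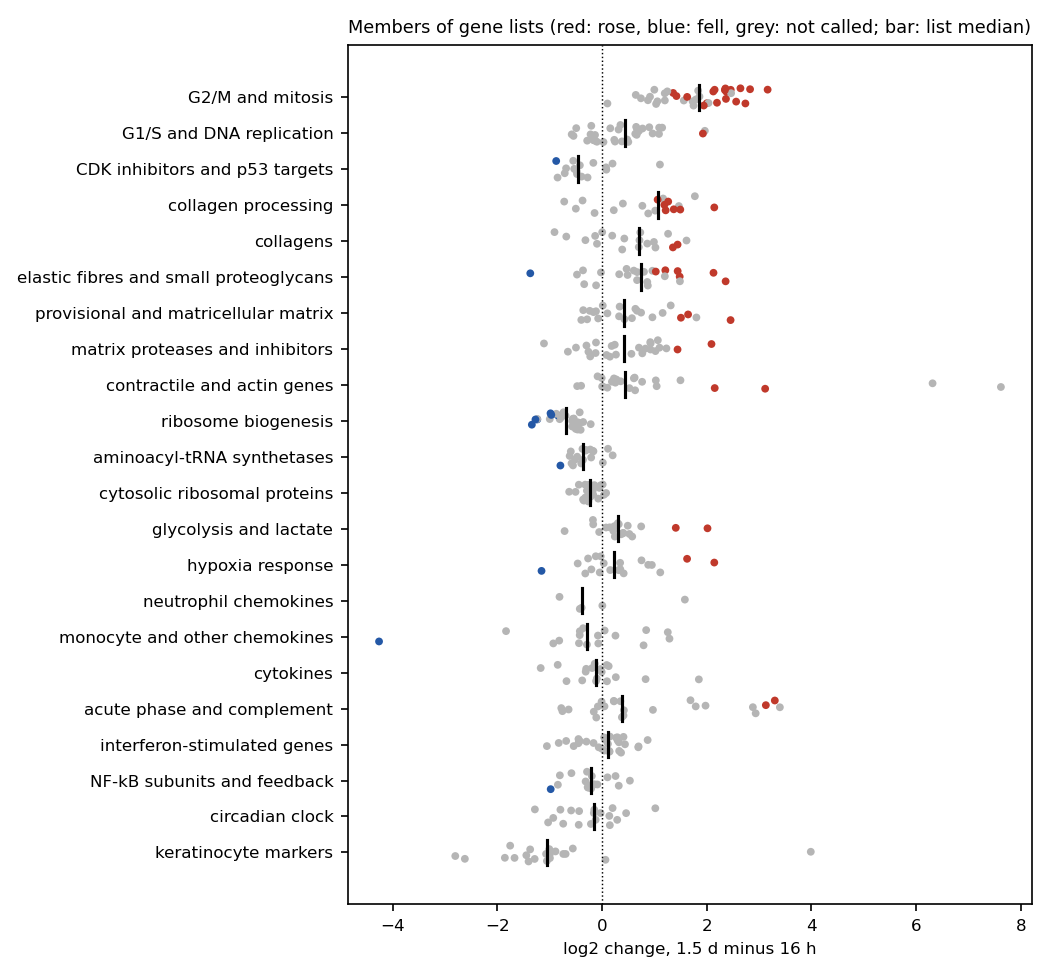
Each point is 1 tested member of a gene list (rows), placed by its log2 change from 16 h to 1.5 d (x axis), with rises in red, falls in blue and genes not called in grey. The black bar is the list's median, and the dotted line the median of all genes tested. The G2/M members all lie right of 0 and the ribosome biogenesis members all left of it.

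Some of these counts share exon sequence with another gene, and the protocol keeps no strand. The share of exon bases is 13.1% for Loxl3, 11.2% for Aldh1a1, 7.9% for Nid2, 6.46% for Serpina3g, 6.43% for Tk1, 6.16% for Ccn2, 5.65% for Cd34 and 3.03% for Mybbp1a. Reads there can belong to either gene.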

How the data were processed

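Poly(A) RNA of sorted cells was converted to full-length cDNA (SMART-Seq v4) and tagmented libraries (Nextera XT), which keep no strand, per the labels' protocols. The deposited table holds raw counts of read pairs per gene, made by the authors with featureCounts 2.0.0 on mm10 RefGene exons, per the file headers. STAR, SAMtools and Partek are named in the submitters' processing notes. Multi-mapping reads were not requested in the header's command.

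Counts of all 12 libraries were fitted by group with edgeR 4.0.16 (R 4.3.3; TMM, filterByExpr, robust quasi-likelihood test), and 1.5 d was contrasted with 16 h. Genes were called at a Benjamini-Hochberg adjusted p under 0.05. Levels are TMM-scaled CPM. Standard errors are approximate (log2 change over the root of F). A count of 3 equals 0.069 to 0.1135 CPM in these 6 libraries. DESeq2 1.42.0, limma-voom 3.58.1, other scalings and filters, the 6 libraries alone, a replicate block and leaving out each library were alternatives. The test was also run on simulated counts in which the changes put in were all large. That run does not vouch for calls of smaller changes or bear on the dependence on single libraries.

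Genes were named by rule: the 15 largest rises and falls whose higher group mean reached 20 CPM without overlap, up to 6 called and 3 uncalled members per list, and a fixed panel. The members and lists were chosen with earlier results of these data known. Libraries of a group came from different mice, and no 2 libraries agreed within sampling noise. Some genes that the rule names are not reported here.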

Additional observations from a re-analysis of the deposited data

How the results depend on the processing

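The main test gave 356 rises and 70 falls. With DESeq2 835 genes rose and 357 fell, and these include all 356 and all 70. The stricter filter on low counts gave 109 falls. RLE, total-count and upper quartile scaling, limma-voom, no filter and the 6 libraries alone kept both counts within 1.5 times, from 287 to 450 rises and from 49 to 93 falls. A like count did not mean like genes: the 6 libraries alone gave 309 rises and 59 falls, of which 265 and 29 were shared with the main test. The median log2 change over all genes lay between -0.08 and 0.061 over the scalings. Leaving out 1 library gave between 137 and 252 rises and between 10 and 44 falls. Deviations of same-numbered libraries correlated at -0.0923, 0.02 and -0.0187, and those of differently numbered ones between -0.119 and 0.134. The labels give the numbers no shared batch or day, so the libraries were treated as unpaired. With a replicate block 193 genes rose and 18 fell, 190 and 17 of them shared with the main test. Of 92 called genes that were named, 34 were called under every alternative run, and none changed direction. With 3 mice a group, and fewer fragments at 16 h, a difference that was not called may be undetectable at this depth and n.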

Other observations

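The hour of day of collection is not given in the labels. None of 19 circadian clock genes was called by edgeR (2.86% of all genes were), DESeq2 or limma-voom. An unadjusted edgeR p under 0.05 was found for 2, against 2596 of all 14901 genes tested. Nr1d1, a repressor of the clock, had 96.5, 138 and 90.7 CPM at 16 h and 27.6, 83.3 and 48.5 CPM at 1.5 d, without overlap (edgeR adjusted p = 0.152). Of its exon bases 9.51% are shared with another gene. Arntl, the activator, had 95.9, 61.00 and 43.04 CPM and 87.5, 60.9 and 81.5 CPM, and Per1 8.54, 6.48 and 5.30 CPM and 7.53, 6.82 and 3.87 CPM.

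Among genes of protein folding and quality control, none of 15 heat shock genes and none of 22 proteasome genes was called by edgeR. Of these 5 and 4 had an unadjusted p under 0.05, 1 and 1 were called by DESeq2, and none by limma-voom. Over all 14901 genes tested 2596 had such a p and edgeR called 2.86%. DESeq2 called 835 rises and 357 falls among 14581 genes. Farsb, of phenylalanyl-tRNA synthetase, fell 1.74-fold from 156, 172 and 168 to 100.3, 90.8 and 94.4 CPM (edgeR adjusted p = 0.0401). It was the only call among 19 aminoacyl-tRNA synthetases (5.26% fell, against 0.47% of all genes), of which 16 had a negative log2 change. It was lost with any 1 library left out (up to 0.144), and 10.4% of its exon bases are shared with another gene. Srxn1, an NRF2 target that repairs peroxiredoxins, rose 1.84-fold to 642 ± 115 CPM (edgeR adjusted p = 0.0456), and was also lost with any 1 library left out (up to 0.156).

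None of 11 STAT and SOCS genes was called by edgeR. All 11 had a negative log2 change (median -0.33), 3 had an unadjusted p under 0.05, 1 was called by DESeq2 and none by limma-voom. Over all 14901 genes tested 7501 had a negative log2 change, 2596 had such a p and edgeR called 2.86%.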
